A study of Mus musculus with 6 samples.

Results

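The 5 genes of the Ikaros family, Ikzf1 to Ikzf5, encode zinc finger transcription factors. Their open chromatin was examined as merged regions, that is, the called peaks of all 6 libraries joined where they overlapped by at least 1 bp. A region was taken as a family region when its nearest protein-coding gene interval within 100 kb was that of a family member, by the RefSeq annotation of the GRCm38 assembly (mm10). Of 69171 regions, 51 met this rule: 32 at Ikzf1, 13 at Ikzf3, 3 at Ikzf4, 2 at Ikzf2 and 1 at Ikzf5. Chromatin accessibility had been profiled with ATAC-seq, where a transposase cuts and tags open DNA, in 3 flow-sorted populations of the bone marrow of naive Adig mice on the Balb/c strain. In these mice a green fluorescent protein reports expression of Aire, the autoimmune regulator known from thymic epithelium. The pc-BMACs were sorted as AireGFP+B220-CD138+TACI+ cells, plasma cells as AireGFP-B220-CD138+TACI+ cells and immature B cells by the gate AireGFP-B220+CD138-TACI-IgM+, with 2 libraries per population and 2000 to 15000 cells per experiment. The labels do not give the age of the mice or say whether replicate libraries came from different animals, so any spread between them may be technical.

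Ikaros proteins bind DNA through N-terminal zinc fingers and pair with each other through C-terminal fingers, and they act as repressors or activators through chromatin remodelling complexes. In mice Ikaros (Ikzf1) is needed for the earliest lymphoid steps and for B cell development, and Aiolos (Ikzf3) rises as B cell precursors mature and is needed for long-lived bone marrow plasma cells. Helios (Ikzf2) and Eos (Ikzf4) are known mainly from T cells, regulatory T cells above all, while Pegasus (Ikzf5) is widely expressed. In human myeloma cells IKZF1 and IKZF3 are the proteins that lenalidomide sends for degradation through cereblon.

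The data are lists of called peaks without read counts. The depth of each library is therefore unknown, and a region without a peak in a library is not shown to be closed there. The lists of pc-BMACs 1 and 2 held 38607 and 34070 peaks, those of plasma cells 37821 and 36723, and those of immature B cells 51643 and 46534. With 2 libraries against 2 the smallest two-sided exact permutation p is 0.333, so no p is given. The main counts of family regions stand beside the same share over all regions. The 7 marker genes fixed for plasma cells had 43 and 42 called regions in pc-BMACs, 45 and 43 such regions in plasma cells and 45 and 40 of them in immature B cells. The 8 marker genes of immature B cells had 58 and 40 called regions in pc-BMACs, 61 and 59 such regions in plasma cells and 80 and 76 of them in immature B cells. The single region assigned to Aire was called in all 6 libraries, so peak calls there do not tell the reporter-positive cells from the others. Markers of T, NK and innate lymphoid cells had 14 and 9 called regions in pc-BMACs, 22 and 21 such regions in plasma cells and 17 and 15 of them in immature B cells, with none assigned to Cd8a, Ncr1 and Gzma. Erythroid markers had 7 called regions in plasma cells 1 and 2 or 3 in each other library. Over all libraries the plasma cell markers had 64 regions and the immature B cell markers 106. Markers of T, NK and innate lymphoid cells had 33 regions, and erythroid markers 8. Over all regions, called shares were 54.7% and 47.4% for pc-BMACs, 51.8% and 50.5% for plasma cells, and 74.1% and 64.8% for immature B cells. Immature B cells thus led over all regions as well as at their own markers. These marker counts were not tested against all regions.

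Annotated start sites of the family differed in which libraries had a peak there. The RefSeq promoter table (GRCm38.p6) held 3 windows for the family, each running from 250 bases before to 50 bases after a start site. They are shown because the first Ikzf1 start lay in a peak of all 6 libraries, the second Ikzf1 start in a peak of both immature B cell libraries alone, and the Ikzf5 start again in a peak of all 6. Capitals mark CpG dinucleotides, and each sequence runs 5′ to 3′ on the strand of the gene. The windows are chr11:11685675-11685974 on the plus strand, chr11:11689927-11690226 on the plus strand and chr7:131410429-131410728 on the minus strand.
Ikzf1 first start: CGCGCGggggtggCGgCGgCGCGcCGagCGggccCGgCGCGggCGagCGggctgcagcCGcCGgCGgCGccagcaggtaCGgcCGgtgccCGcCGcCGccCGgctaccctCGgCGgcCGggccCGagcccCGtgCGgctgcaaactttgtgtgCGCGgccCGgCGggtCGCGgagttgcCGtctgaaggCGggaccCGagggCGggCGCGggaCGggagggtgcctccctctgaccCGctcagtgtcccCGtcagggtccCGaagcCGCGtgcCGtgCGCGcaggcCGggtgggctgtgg
Ikzf1 second start: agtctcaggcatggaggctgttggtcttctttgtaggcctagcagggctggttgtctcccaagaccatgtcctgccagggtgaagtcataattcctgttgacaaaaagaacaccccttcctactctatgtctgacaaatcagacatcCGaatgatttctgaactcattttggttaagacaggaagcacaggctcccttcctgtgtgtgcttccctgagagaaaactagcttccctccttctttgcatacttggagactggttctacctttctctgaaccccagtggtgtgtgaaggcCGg
Ikzf5 start: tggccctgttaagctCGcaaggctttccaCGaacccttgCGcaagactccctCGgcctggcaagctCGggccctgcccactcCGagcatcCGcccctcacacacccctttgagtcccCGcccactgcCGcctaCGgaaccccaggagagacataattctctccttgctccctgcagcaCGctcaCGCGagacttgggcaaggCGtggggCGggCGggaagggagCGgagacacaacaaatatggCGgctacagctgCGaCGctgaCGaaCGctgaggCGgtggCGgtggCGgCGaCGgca

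The first Ikzf1 window held 52 CpG dinucleotides and was 81.3% G and C, at percentile 99.3 of the 32851 promoter windows of the table. The second Ikzf1 window held 2 CpG and was 49.0% G and C. The Ikzf5 window held 27 CpG and was 65.7% G and C. The median over all windows was 7 CpG and 52.7% G and C, so the second Ikzf1 start was CpG-poor and the other windows CpG-rich. Windows in a peak of all 6 libraries (33.3% of all windows) had a median of 23 CpG, and those in a peak of both immature B cell libraries alone (0.922% of all windows) a median of 8. The 6-letter motif GGGCGG, the GC box, was found on either strand at 2 positions in the first Ikzf1 window, 0 in the second and 4 in the Ikzf5 window, and in 35.7% of all windows. The Ikaros core motif TGGGAA was in none of the 3 windows on either strand and in 25.6% of all windows.

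Ikzf3, the Aiolos gene, held the widest region of the family, and plasma cells lacked it. This region (chromosome 11, 98544962 to 98547962) spans the high-coordinate end of the gene interval, with 1070 bp inside the gene and 1931 bp beyond it. As background, mouse Ikzf3 is transcribed from this end, although the gene table used here gives no strand. Called peaks covered 2985 and 2977 bp of the region in pc-BMACs 1 and 2, 0 and 0 bp in plasma cells 1 and 2, and 2990 and 929 bp in immature B cells 1 and 2. The pc-BMACs and immature B cells thus did not overlap with plasma cells there, while pc-BMACs 1, pc-BMACs 2 and immature B cells 1 had nearly the same peak. Regions called in both libraries of pc-BMACs and of immature B cells alone made up 1.06% of all regions (736 of 69171), and the Ikzf3 end region was the third widest of them. A width of at least 2 kb, a class chosen after the width of this region was known, was found in 1877 regions that lay within 1 kb of a gene end and were called in all 4 libraries of pc-BMACs and immature B cells. Of these, 1868 were called in both plasma cell libraries and 4 (0.213%) in neither, the Ikzf3 end region among them. Over all widths the share was 0.82% (81 of 9882). For wide regions shared by the other pairs of populations, 0.527% were called in no pc-BMAC library and 0.477% in no immature B cell library. The call pattern stayed as it was when the lists were cut to their widest peaks, and when peaks narrower than 300 bp were dropped. Where a call needed 50% of the region to be covered, immature B cells 2 no longer had it.

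**Figure D1:**
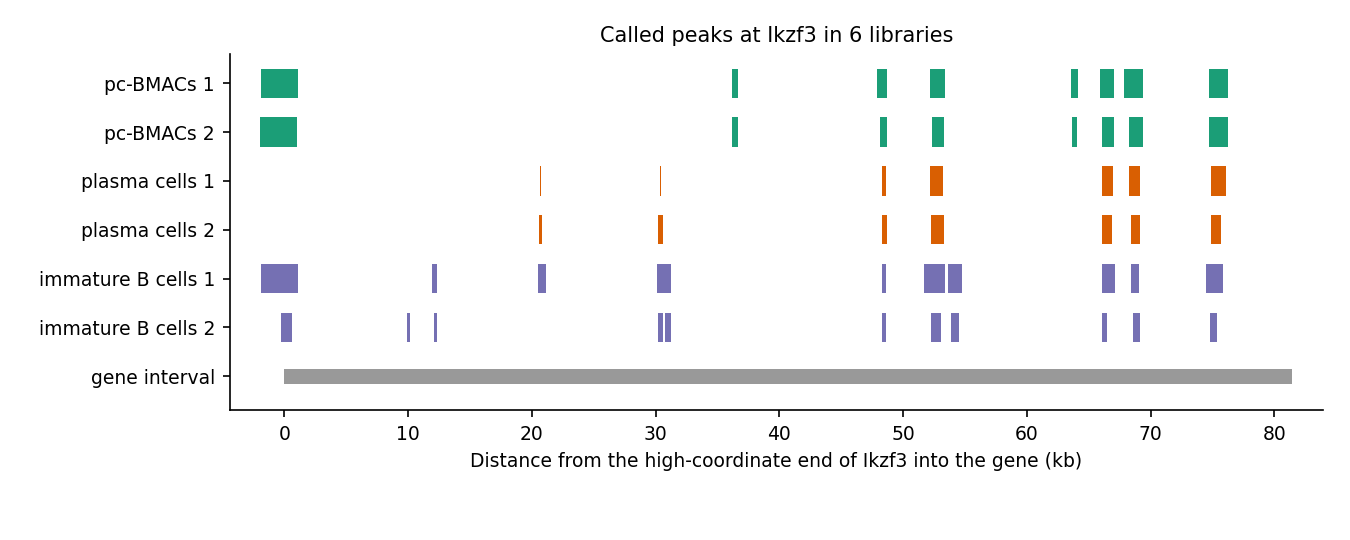
Called peaks (bars) at Ikzf3 in each of the 6 libraries, by distance in kb from the high-coordinate end of the gene into the gene, with the gene interval in grey. The peaks at 0 kb are present in the pc-BMAC and immature B cell libraries and absent from both plasma cell libraries, while 5 regions, centred between 48.3 and 75.4 kb, are present in all 6 libraries. In that span 1 region of pc-BMACs alone and 1 of immature B cells alone are seen as well.

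Inside Ikzf3, 2 regions were called in pc-BMACs alone and 2 in immature B cells alone, the latter near the share over all regions. All 13 regions of the gene overlapped its interval of 81.4 kb, and 5 (38.5%) were called in all 6 libraries, against 29.6% of all regions. Both pc-BMAC libraries, and no other, had 2 regions (15.4% of the 13, against 4.42% of all regions). The region 36.4 kb from the high-coordinate end (98509401 to 98509836) was covered over 427 and 431 bp, and that at 63.9 kb (98481888 to 98482462) over 575 and 353 bp. Both immature B cell libraries, and no other, had 2 regions as well (immature B cells alone: 14.3% of all regions). The wider of them (98491286 to 98492411) was covered over 1126 and 690 bp, and the other (98533698 to 98534141) over 444 and 232 bp. No Ikzf3 region was called in both plasma cell libraries alone, and neither was any of the 51 family regions (plasma cells alone: 1.5% of all regions).

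Plasma cells shared 2 further Ikzf3 regions with immature B cells, both with narrow plasma cell peaks. The region 30.7 kb from the high-coordinate end (98514796 to 98515908) was covered over 0 and 0 bp in pc-BMACs, 150 and 395 bp in plasma cells and 1087 and 945 bp in immature B cells. The region at 20.8 kb (98524919 to 98525496) was covered over 0 and 0 bp in pc-BMACs, 150 and 234 bp in plasma cells, and 578 and 0 bp in immature B cells. The plasma cell values lay between those of the other populations in the first region and within the spread of immature B cells in the second. A peak of 150 bp is the narrowest in these lists, and with peaks of at least 300 bp neither region was called in both plasma cell libraries. The last Ikzf3 region was called in immature B cells 2 alone.

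Called peaks covered 10.3 and 8.85 kb of the Ikzf3 regions in pc-BMACs, 4.80 and 4.48 kb in plasma cells, and 11.4 and 5.90 kb in immature B cells. Without the end region the values were 7.28 and 5.87 kb in pc-BMACs, 4.80 and 4.48 kb in plasma cells, and 8.37 and 4.97 kb in immature B cells, so plasma cells remained lowest, by a narrow margin against immature B cells 2. In the 5 Ikzf3 regions of all 6 libraries the values were 6.3 and 5.1 kb in pc-BMACs, 4.5 and 3.9 kb in plasma cells, and 5.1 and 2.8 kb in immature B cells. There immature B cells 2 was the lowest library. Plasma cell lists were also the shortest in covered length over the genome, at 21.9 and 21.5 Mb, against 28.7 and 23.4 Mb for pc-BMACs and 36.9 and 26.0 Mb for immature B cells. In 4 of the 5 Ikzf3 regions of all libraries, both pc-BMAC libraries had more covered bp than either plasma cell library. This pattern was found in 49.9% of all regions of 6 libraries. In 3 of the 5, both pc-BMAC libraries had more than either immature B cell library, against 17.9% of such regions. The reverse was found in 0 of the 5, against 29.8%. Both plasma cell libraries had more than either immature B cell library in 1 of the 5, against 6.85%. For that pair the reverse was found in 0 of the 5, against 54.4%. Read depth is unknown, and its part in these values was not tested.

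Ikzf1, the Ikaros gene, was called at its first start in every population, and its second start was called in immature B cells alone. Only 68 of 15188 genes with a region had more than its 32, and the median gene had 3. The region at the first start (chromosome 11, 11684504 to 11687320), whose CpG-rich window is printed above, was covered over 2310 and 2005 bp in pc-BMACs, 2017 and 2364 bp in plasma cells, and 2817 and 1729 bp in immature B cells. These ranges overlap. The region at the second start (11688929 to 11691187), 5.22 kb from the low-coordinate end of the gene, was covered over 0 and 0 bp in pc-BMACs, 0 and 0 bp in plasma cells, and 2259 and 1084 bp in immature B cells. It was the eighth widest of the 9904 regions that both immature B cell libraries, and no other, had, whose median width was 321 bp. The peaks covered 300 and 274 bases of the CpG-poor window. Where a call needed 50% of the region to be covered, immature B cells 2 no longer had it. The next region into the gene (11691304 to 11692263) lies close by and was called in all 6 libraries. Peaks covered 808 and 391 bp of it in pc-BMACs, 710 and 419 bp in plasma cells, and 878 and 620 bp in immature B cells. Of the 1911 genes that have at least 2 promoter windows and a window in a peak of all 6 libraries, 23 also had a window in a peak of both immature B cell libraries alone, Ikzf1 among them.

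**Figure D2:**
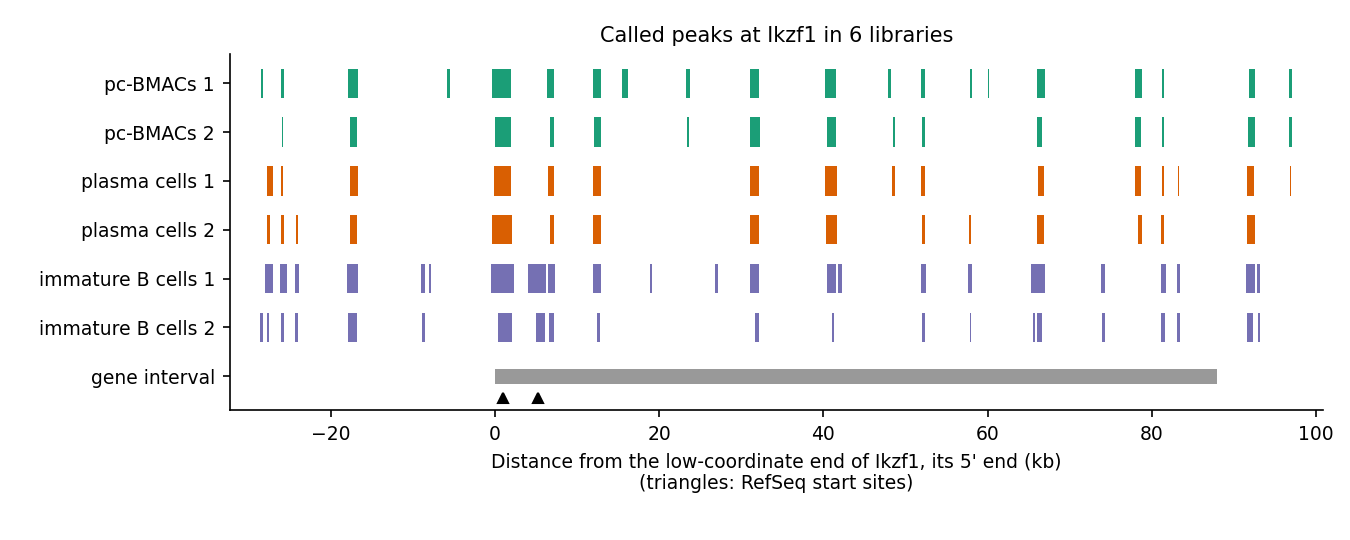
Called peaks (bars) at Ikzf1 in each of the 6 libraries, by distance in kb from the low-coordinate end of the gene, its 5′ end, with the gene interval in grey and the RefSeq start sites as triangles. Peaks at the first start are present in all 6 libraries, and peaks at the second start, 5.22 kb into the gene, in immature B cells 1 and 2 alone.

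Of the 32 Ikzf1 regions, 11 (34.4%, against 29.6% of all regions) were called in all 6 libraries, 21 overlapped the gene, 8 lay before it and 3 beyond it. The regions of all 6 libraries included 2 before the gene, at 25377 and 16664 bp from its low-coordinate end, and 1 beyond it. The nearer of them (11666959 to 11668298) was covered over 1179 and 892 bp in pc-BMACs, 961 and 925 bp in plasma cells, and 1340 and 1170 bp in immature B cells. Plasma cells fell within the range of pc-BMACs there. Within the gene, the region centred at 31.6 kb (11715971 to 11717198) was covered over 1206 and 1164 bp in pc-BMACs, 1092 and 1087 bp in plasma cells, and 1136 and 493 bp in immature B cells. That at 40.9 kb (11725192 to 11726590) was covered over 1340 and 1085 bp in pc-BMACs, 1364 and 1333 bp in plasma cells, and 1154 and 150 bp in immature B cells, with immature B cells 2 far below the other libraries. The region at 12.4 kb (11696913 to 11697863) was nearly even outside immature B cells 2, at 900 and 902 bp in pc-BMACs, 931 and 897 bp in plasma cells, and 906 and 464 bp in immature B cells.

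A region near the 3′ end of Ikzf1 separated both CD138+ populations from immature B cells. Centred 78.3 kb into the gene (11762864 to 11763736), it was covered over 873 and 755 bp in pc-BMACs, 748 and 511 bp in plasma cells, and 0 and 0 bp in immature B cells. It is the only family region called in both pc-BMAC and both plasma cell libraries and no other (3.66% of all regions), and it kept this pattern with the widest peaks, with peaks of at least 300 bp and with 50% coverage. A region 8734 bp beyond the gene (11781664 to 11782049) was covered over 369 and 322 bp in pc-BMACs, 192 and 0 bp in plasma cells, and 0 and 0 bp in immature B cells. In the region at 23.5 kb (11708280 to 11708696) both pc-BMAC libraries, and no other, had a peak, of 417 and 271 bp. The peak of pc-BMACs 2 there was below 300 bp.

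Both immature B cell libraries, and no other, had 4 of the 32 Ikzf1 regions (12.5%, against 14.3% of all regions). Besides the region at the second start there were 3 of them. These lay 8524 bp before the gene (11675974 to 11676438), 74.1 kb into it (11758827 to 11759285) and 93.0 kb from its low-coordinate end, beyond the gene (11777764 to 11778164), with peaks of 267 to 465 bp. A region 27032 bp before the gene (11657004 to 11657930) was covered over 0 and 0 bp in pc-BMACs, 749 and 328 bp in plasma cells, and 903 and 319 bp in immature B cells. It was 1 of 3 family regions called in every library of plasma cells and of immature B cells but in no pc-BMAC library (4.88% of all regions). The remaining 13 Ikzf1 regions split the libraries of at least 1 population. Of these, 8 were called in a single library (25.0% of the 32, against 22.3% of all regions). They came from the longest list of their population, 4 from pc-BMACs 1 (12.5%, against 4.5%) and 4 from immature B cells 1 (12.5%, against 10.1%). The region at 48.5 kb (11733263 to 11733724) was called over 336 bp in pc-BMACs 2 and 423 bp in plasma cells 1, with no peak elsewhere. The region at 57.8 kb (11742527 to 11743043) was covered over 191 and 0 bp in pc-BMACs, 0 and 286 bp in plasma cells, and 517 and 238 bp in immature B cells. Both immature B cell libraries and a single plasma cell library had 2 more, the region 23857 bp before the gene (11660554 to 11661105) with plasma cells 2 and that at 83.3 kb (11768056 to 11768410) with plasma cells 1. The last, 28292 bp before the gene (11656393 to 11656670), was called in pc-BMACs 1 and immature B cells 2.

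In the 11 Ikzf1 regions of all libraries, called peaks covered 10.6 and 8.55 kb in pc-BMACs, 9.85 and 9.93 kb in plasma cells, and 13.0 and 7.37 kb in immature B cells. Both pc-BMAC libraries had more covered bp than either plasma cell library in 1 of these regions, against 49.9% of all regions of 6 libraries. They had less in 2, against 8.96%. Both plasma cell libraries had less than either immature B cell library in 2 of these regions, against 54.4%. The difference of these 11 regions from all others was not tested.

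Ikzf2, the Helios gene, had a region at its 5′ end in plasma cells and immature B cells, and none in pc-BMACs. The gene interval runs over 156 kb of chromosome 1 (69531207 to 69687351) and is, as background, transcribed from its high-coordinate end. The region there (69687054 to 69687845) was covered over 0 and 0 bp in pc-BMACs, 419 and 587 bp in plasma cells, and 792 and 619 bp in immature B cells. The 3 populations did not overlap in this region, although plasma cells 2 (587 bp) and immature B cells 2 (619 bp) lay close. Among regions of all 6 libraries, to which it does not belong, 54.4% had both immature B cell libraries above either plasma cell library. With the widest 17035 peaks, plasma cells 1 no longer had the Ikzf2 end region. Among regions within 1 kb of a gene end called in both libraries of plasma cells and of immature B cells, 2.93% (296 of 10119) were called in no pc-BMAC library. The other Ikzf2 region, 1692 bp beyond the same end (69689043 to 69689290), was covered over 0 and 0 bp in pc-BMACs, 0 and 202 bp in plasma cells, and 187 and 192 bp in immature B cells. No other region lay in the gene. The markers of T, NK and innate lymphoid cells, among which Helios is known, also had fewer called regions in pc-BMACs than in either other population, as given above. Against immature B cells the genes of that list differed. Cd4 was higher in pc-BMACs (2 and 2, against 1 and 0), Klrb1c, Prf1 and Tbx21 were lower, and Cd3e, Il2rb and Lck overlapped. Immature B cells led over all regions too (74.1% and 64.8%, against 54.7% and 47.4% for pc-BMACs). The part of these markers in the Ikzf2 result was not tested.

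Ikzf4, the Eos gene (chromosome 10, 128630839 to 128669671), had 3 regions, all inside its interval. The region 6.18 kb from the low-coordinate end (128636564 to 128637479) was called in all 6 libraries, over 685 and 150 bp in pc-BMACs, 150 and 338 bp in plasma cells, and 916 and 701 bp in immature B cells. The peaks of pc-BMACs 2 and plasma cells 1 had the least width, 150 bp, and did not overlap each other. With peaks of at least 300 bp, or with 50% coverage, only pc-BMACs 1 and both immature B cell libraries had this region. The region at the high-coordinate end (128668826 to 128669719) was covered over 0 and 0 bp in pc-BMACs, 0 and 276 bp in plasma cells, and 894 and 662 bp in immature B cells. Immature B cells were above every other library at both, by a narrow margin in the region of all 6 libraries (701 against 685 bp). Of all regions of 6 libraries, 29.8% had both immature B cell libraries above either pc-BMAC library. For plasma cells in place of pc-BMACs the share was 54.4%. The third region (128645749 to 128645972) was called in plasma cells 2 and immature B cells 2 alone, whose descriptions share an R number that the labels do not explain.

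Ikzf5, the Pegasus gene (chromosome 7, 131388649 to 131410518), had 1 region, at its start (131409586 to 131410928), which contains the CpG-rich window printed above. It was covered over 1343 and 1117 bp in pc-BMACs, 919 and 1134 bp in plasma cells, and 1009 and 872 bp in immature B cells. The pc-BMACs were above immature B cells there, as in 17.9% of all regions of 6 libraries, and plasma cells overlapped both. The region also overlaps the neighbouring gene Acadsb, which encodes a mitochondrial acyl-CoA dehydrogenase, and it went to Ikzf5 because it shares more bases with it.

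**Figure D3:**
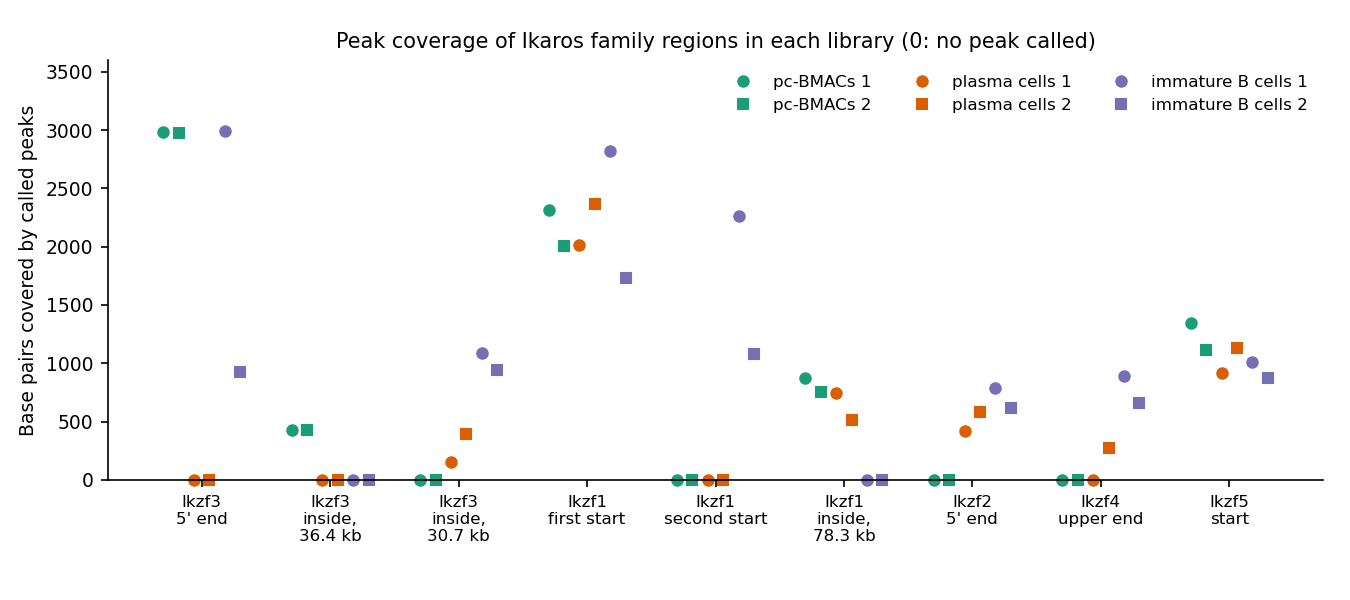
Base pairs covered by called peaks in 9 family regions, with circles for library 1 and squares for library 2 of each population (pc-BMACs green, plasma cells orange, immature B cells violet), where 0 means that no peak was called. The Ikzf3 5′ end is at 0 in plasma cells alone, the second Ikzf1 start is above 0 in immature B cells alone, and the Ikzf1 region at 78.3 kb is at 0 in immature B cells alone.

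Seen over libraries, the family was called about as often as other regions. Of the 51 regions, pc-BMACs had 30 and 25 (58.8% and 49.0%), plasma cells 26 and 28 (51.0% and 54.9%), and immature B cells 38 and 36 (74.5% and 70.6%). Over all regions the shares were 54.7% and 47.4% for pc-BMACs, 51.8% and 50.5% for plasma cells, and 74.1% and 64.8% for immature B cells. The called Ikzf1 regions numbered 17.5 ± 3.54 for pc-BMACs, 15.5 ± 0.71 for plasma cells and 21.5 ± 2.12 for immature B cells (SD, n = 2 each). For Ikzf3 both libraries of each population gave the same number, which was 8 for pc-BMACs, 7 for plasma cells and 10 for immature B cells. The totals at Ikzf3 thus differ by 1 to 3 regions between populations, and equal totals of libraries do not mean the same regions, since immature B cells had 9 in both and 11 in either. At Ikzf1 pc-BMACs 1 (20) and immature B cells 2 (20) had the same number.

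**Figure D4:**
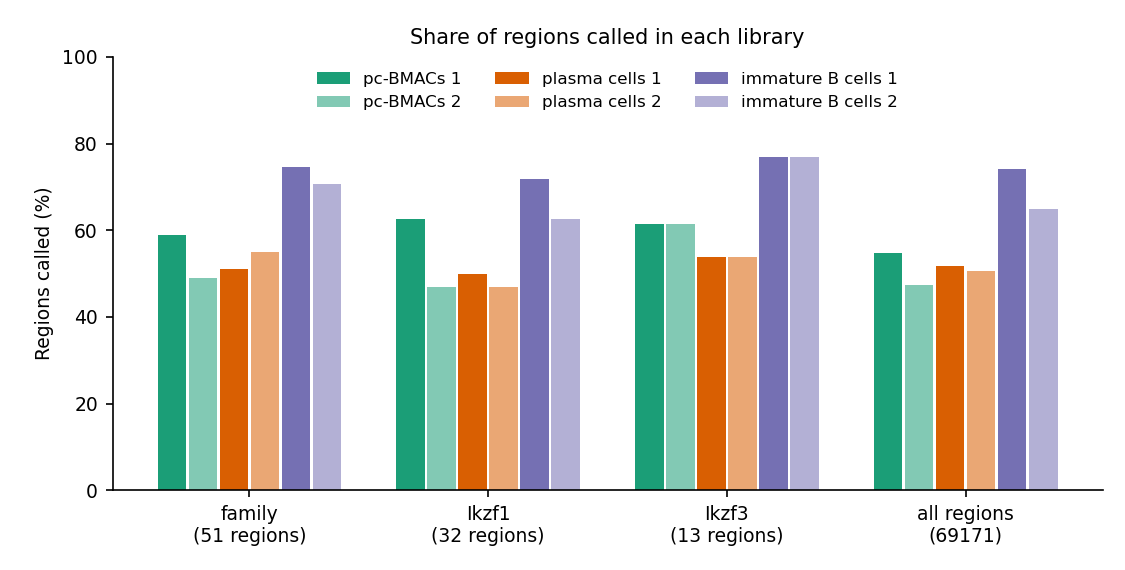
Share of regions called (%) in each library for the 51 family regions, the 32 of Ikzf1, the 13 of Ikzf3 and all 69171 regions, with library 1 in full and library 2 in pale colour. Immature B cells are highest or level with the highest in each set, and the family bars lie near those for all regions, for example 58.8% against 54.7% in pc-BMACs 1.

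Between pc-BMACs and plasma cells, family regions of either population balanced. Of 40 family regions called in any of these 4 libraries, 4 were called in both libraries of pc-BMACs and neither of plasma cells (10.0%, against 8.42% of all regions of the comparison), and 4 showed the opposite pattern (10.0%, against 9.46%). The pc-BMAC regions were the Ikzf3 end region, both further Ikzf3 regions of pc-BMACs and the Ikzf1 region at 23.5 kb. The plasma cell regions were the Ikzf2 end region, 2 at Ikzf3 and the Ikzf1 region 27032 bp before the gene. All 4 libraries shared 19 regions (47.5%, the same as over all regions). Leaving out a library can only raise these counts or leave them, and the shares over all regions rose as well. Without pc-BMACs 2 there were 9 pc-BMAC regions (22.5%, against 17.8% of all regions under that rule). Without plasma cells 1 there were 8 plasma cell regions (20.5%, against 15.8%).

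Between pc-BMACs and immature B cells, 5 of 51 family regions were called in both pc-BMAC libraries alone of the 2 populations (9.8%, against 10.3% of all regions), and 13 in both immature B cell libraries alone (25.5%, against 24.1%). Of these 13 regions, 7 were at Ikzf1, 3 at Ikzf3, 2 at Ikzf2 and 1 at Ikzf4. All 4 libraries shared 19 regions (37.3%, against 33.9%). Without pc-BMACs 2 there were 9 pc-BMAC regions (18.0%, against 16.2%). Between plasma cells and immature B cells, 1 of 44 family regions was called in both plasma cell libraries alone (2.27%, against 6.35%), the Ikzf1 region at 78.3 kb, and 7 in both immature B cell libraries alone (15.9%, against 19.0%). All 4 libraries shared 21 regions (47.7%, against 40.9%). The immature B cell count was 11 without plasma cells 2 (25.0%, against 23.7% of all regions) and likewise 11 without immature B cells 2 (26.2%, against 32.8%). The count of plasma cell regions was 3 without plasma cells 2 (6.82%, against 10.9%) and 2 without immature B cells 1 (5.0%, against 8.98%). The 3 comparisons share libraries, so their counts are not independent, and the family share lay near that of all regions in each direction but plasma cells over immature B cells, where it rests on 1 region. With each list cut to its widest 34070 peaks, immature B cells had 11 of 47 family regions that pc-BMACs lacked (23.4%, against 15.9% of all regions), and pc-BMACs 5 the other way (10.6%, against 15.9%). Under that rule plasma cells had 1 of 42 that immature B cells lacked (2.38%, against 9.99%), and immature B cells 6 that plasma cells lacked (14.3%, against 10.2%).

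**Figure D5:**
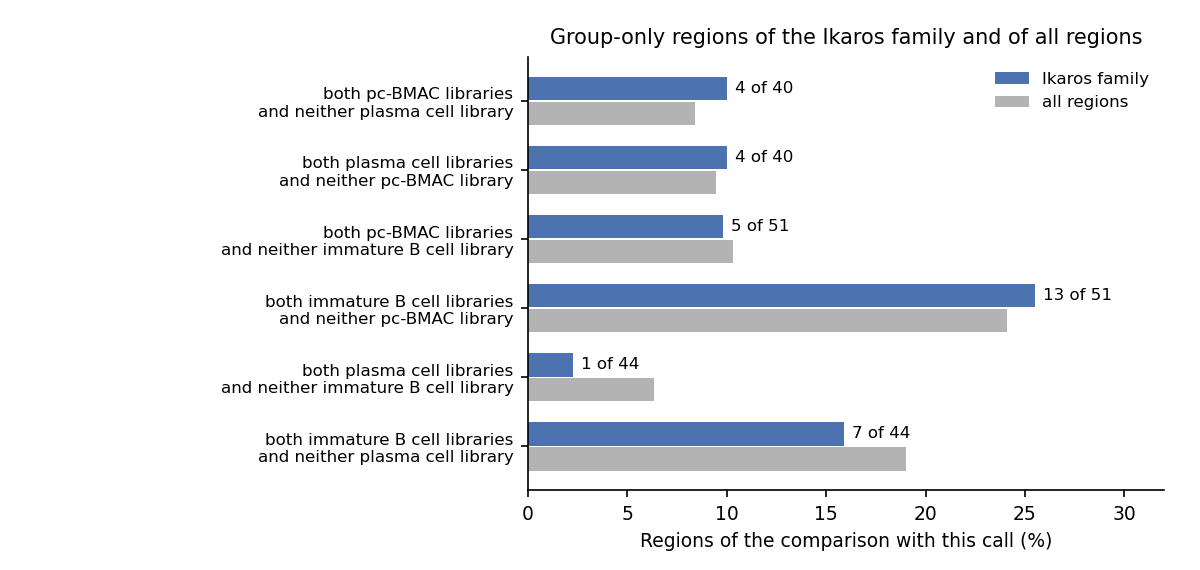
Share (%) of the regions of each comparison that were called in both libraries of a population and in neither of the other, for the Ikaros family (blue, with counts) and for all regions (grey). The widest gap is that for plasma cells against immature B cells, 2.27% of family regions (1 of 44) against 6.35% of all regions.

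Sharing of family regions between libraries of the same population was close to that of all regions, while for plasma cells with immature B cells it was above it in each of the 4 library pairs. The number of family regions called in both libraries over those called in either was 0.774 for the pc-BMAC pair, 0.742 for the plasma cell pair and 0.805 for the immature B cell pair, against 0.767, 0.763 and 0.770 over all regions. Across populations it was 0.526 to 0.7 between pc-BMACs and plasma cells, 0.417 to 0.467 between pc-BMACs and immature B cells, and 0.55 to 0.684 between plasma cells and immature B cells. Over all regions these ranges were 0.582 to 0.62, 0.409 to 0.451 and 0.491 to 0.557. The family values of plasma cells with immature B cells thus lay in the same range as those of pc-BMACs with plasma cells, and the difference from all regions was not tested. Both the highest family value across populations, 0.7 for pc-BMACs 2 with plasma cells 1, and the lowest, 0.417 for pc-BMACs 1 with immature B cells 1, came from libraries that share an R number.

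Genes with a similar profile were sought among the 1507 genes with at least 10 regions, by the mean absolute difference of the 6 shares of regions called per library. For Ikzf1 the closest were Smad6 (11 regions, 1.75 percentage points), Dph5 (13 regions, 2.04 points) and Sertad2 (21 regions, 2.11 points), against a median of 13.0 points over these genes. For Ikzf3 they were Cryaa (13 regions, 1.28 points), Crtc3 (17 regions, 3.17 points) and Ptpn1 (22 regions, 3.21 points), against a median of 14.9 points. The median shares over the 1507 genes were 56.7% and 46.2% for pc-BMACs, 50.0% and 47.1% for plasma cells, and 72.7% and 61.5% for immature B cells. Those of Ikzf1, in the same order, were 62.5% and 46.9%, 50.0% and 46.9%, and 71.9% and 62.5%. Ikzf1 thus lay near these medians itself. Smad6 encodes an inhibitor of BMP signalling, Crtc3 a coactivator of CREB and Ptpn1 a tyrosine phosphatase.

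Around the family, regions of other genes within 100 kb differed in number. Ikzf3 lay in a gene-dense stretch with 24 such regions, of which pc-BMACs had 14 and 12, plasma cells 11 and 10, and immature B cells 16 and 13. Ikzf4 had 20 regions of other genes around it, of which pc-BMACs had 18 and 16, plasma cells 12 and 12, and immature B cells 15 and 14. Ikzf1 had 8, all of which were called in immature B cells 1, and Ikzf2 had 1. Of all regions, pc-BMACs had 54.7% and 47.4%, plasma cells 51.8% and 50.5%, and immature B cells 74.1% and 64.8%. The difference of these neighbourhoods from all regions was not tested.

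The 20 genes of corepressor and remodelling complexes through which Ikaros proteins act had 78 regions in the comparison of pc-BMACs with plasma cells. Of these 5 (6.41%, against 8.42%) were called in both pc-BMAC libraries alone and 10 (12.8%, against 9.46%) in both plasma cell libraries alone. Mta3, which encodes a subunit of the NuRD complex, led with 2 and 4 regions, followed by Ctbp1 and Ctbp2, genes of the CtBP corepressors, and Mbd2, another NuRD gene, with 0 and 2 each. Against immature B cells, pc-BMACs had 14 regions of their own and immature B cells 20 of 89 (15.7% and 22.5%, against 10.3% and 24.1%), led by Mta3 (3 and 6), Gatad2a (5 and 1), and Ctbp1 (0 and 4) level with Mbd2 (2 and 2). Plasma cells had 9 and immature B cells 10 of 81 (11.1% and 12.3%, against 6.35% and 19.0%), led by Gatad2b (1 and 3), Mta3 (2 and 2), and Gatad2a (2 and 1) level with Mbd2 (3 and 0).

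The 22 B-lineage genes known to be bound or regulated by Ikaros or Aiolos, 21 of which had a region, included few regions that pc-BMACs had and plasma cells lacked. Of 167 regions, 6 (3.59%, against 8.42%) were called in both pc-BMAC libraries alone and 23 (13.8%, against 9.46%) in both plasma cell libraries alone. In this comparison 1 gene had more pc-BMAC regions and 9 had more plasma cell regions. Ebf1, which encodes an early B cell transcription factor, had 1 and 6, while Il7r, the interleukin 7 receptor gene, and Pax5, the B cell identity factor gene, had 0 and 3 each. Against immature B cells, pc-BMACs had 16 and immature B cells 58 of 206 regions (7.77% and 28.2%, against 10.3% and 24.1%), led by Ebf1 (3 and 14), Pax5 (3 and 9) and Foxo1 (2 and 6). Plasma cells had 15 and immature B cells 41 of 205 (7.32% and 20.0%, against 6.35% and 19.0%), led by Ebf1 (6 and 10), Pax5 (3 and 6) and Foxo1 (0 and 8). The ligase list, Crbn (cereblon), Ddb1, Cul4a, Cul4b and Rbx1, had 3 pc-BMAC regions and 0 plasma cell regions of 14 (21.4% and 0%, against 8.42% and 9.46%), 1 each at Cul4a, Ddb1 and Rbx1. Against immature B cells it had 4 pc-BMAC and 2 immature B cell regions of 17 (23.5% and 11.8%, against 10.3% and 24.1%). The pc-BMAC regions were 1 each at Cul4a, Crbn, Ddb1 and Rbx1, and the immature B cell regions 1 each at Cul4a and Cul4b. Between plasma cells and immature B cells it had 0 and 2 of 14 (0% and 14.3%, against 6.35% and 19.0%), with 1 immature B cell region each at Cul4a and Cul4b. None of these counts was tested, and neighbouring regions of the same gene may be called together.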

How the data were processed

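ATAC-seq peak lists of 6 libraries, 2 each of pc-BMACs, plasma cells and immature B cells, were used. The authors deposited 1 list per library as peak positions. The submitters' processing notes name the mm10 build, bedtools, HOMER 4.10 and Bowtie2 2.3.3 without their roles. The peak caller settings were not given in the sources used here. In the authors' deposited lists the score is 1000 in each row, and it was not used. Positions are 1-based here, and peaks were at least 150 bp wide.

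Peaks were merged at 1 bp of overlap with Python 3.11.15 (numpy 2.4.6, pandas 2.3.3), and regions were assigned to the nearest of 21900 protein-coding gene intervals. The steps were tested on simulated peaks. Where several genes were equally near (2101 regions, 1 of them a family region), the gene sharing most bases was taken. The gene table gives no exons. No test was made, since the design cannot reach 0.05. Alternatives were 50% coverage, the widest 34070 or 17035 peaks, peaks of at least 300 bp, gene distance, merging within 100 bp, leaving out each library and pairs with the same R number.

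The family members and gene lists were chosen with earlier results of these data known. Named regions are those called in both libraries of exactly 1 or 2 populations and no other, those at a gene end and the widest of each gene. Further regions, such as those called in all 6 libraries or in part of a population, were named after their values were seen.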

Additional observations from a re-analysis of the deposited data

How the results depend on the processing

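Counts of family regions rest on few regions and moved with the peak rule and the libraries. Where a call needed 50% coverage, and likewise with the widest 34070 peaks of each library, regions of plasma cells that pc-BMACs lacked numbered 2 in place of 4 (5.56% and 5.0% of family regions, against 7.2% and 8.98% of all). With the widest 17035 peaks they numbered 0 (against 7.16% of all), and regions of pc-BMACs that plasma cells lacked numbered 2 (9.52%, against 7.13%). That setting left 2 pc-BMAC and 3 immature B cell regions in the comparison of those populations (8.0% and 12.0%, against 12.2% and 11.8%), and 4 immature B cell regions against plasma cells (16.7%, against 8.06%). Among the 39 family regions that overlap their gene, 8 were of immature B cells and lacking in pc-BMACs. The share over all regions that overlap a gene was not computed, so this count cannot be set against it. Between the single libraries of 2 populations that share an R number, 10 regions were of pc-BMACs and lacking in immature B cells (20.8%, against 17.6% of all), and 2 were of plasma cells and lacking in immature B cells (5.26%, against 12.5%). Leaving out each library in turn gave 4 to 9 regions of pc-BMACs and 4 to 8 of plasma cells in their comparison, 5 to 9 of pc-BMACs and 13 to 18 of immature B cells in theirs, and 1 to 3 of plasma cells and 8 to 11 of immature B cells in the last. In this order the family shares were 11.1% to 22.5% (against 10.8% to 17.8% of all regions) and 10.0% to 20.5% (10.8% to 15.8%). Next came 10.2% to 18.0% (11.2% to 16.2%) and 26.0% to 36.7% (25.7% to 37.0%). The last were 2.38% to 6.82% (7.18% to 10.9%) and 19.0% to 26.2% (23.2% to 32.8%). Fewer required libraries can only raise such a count or leave it. The other 49 values of the 6 family counts under the alternatives stayed within 1.5 times. Ikzf1 had 21 regions and Ikzf2 1 when the gene had to be overlapped. The cause of the moves with peak width was not tested. No paired analysis was possible because the results are counts that come from no test and any 2 populations share only 1 R number, so these single-library counts pair nothing. Without read depth, an uncalled region may lie below the calling threshold, which limits every absence given here.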
